A study of Homo sapiens with 8 samples.

Results

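The 10 genes TAP1, TAP2, TAPBP, TAPBPL, PSMB8, PSMB9, PSMB10, PSME1, PSME2 and ERAP1 encode the immunoproteasome and the machinery that loads peptides onto MHC class I molecules. They were chosen by name, through their Ensembl gene IDs on the primary GRCh38 assembly, and all 10 were found among the 40295 gene IDs of the count table. RNA was sequenced from HCT116, an established human colon carcinoma cell line, and from an HCT116 derivative in which CRISPR-Cas9 had placed the E33Q change in MED12. MED12 is the Mediator subunit that activates the kinase CDK8. Each line was taken untreated at 0 h and after 24 h with 5 ng/ml IFN-γ, with 2 biological replicates for each of the 4 groups and 8 libraries in all. The untreated cells were collected at 0 h, so IFN-γ and 24 h more in culture cannot be told apart. The labels name a single knock-in line and do not say how many clones it holds, and the MED12 change cannot be told apart from a difference between clones.

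Proteasomes cut cytosolic proteins into peptides. Interferon-γ acts in part through the transcription factor IRF1, and cells under interferon replace the catalytic β subunits of the 20S core with PSMB9 (β1i), PSMB10 (β2i) and PSMB8 (β5i), which changes the peptides made. The PA28 ring of PSME1 and PSME2 caps the core, the TAP1-TAP2 transporter carries peptides into the endoplasmic reticulum, ERAP1 trims them there, and tapasin (TAPBP) and its relative TAPBPR (TAPBPL) place and edit peptides on class I molecules.

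On GRCh38 in GENCODE release 29, 5 of the 10 genes lie in the MHC on chromosome 6. These are TAP2 (chr6:32821833-32838780, minus strand), PSMB8 (chr6:32840717-32844703, minus), TAP1 (chr6:32845209-32853978, minus), PSMB9 (chr6:32844136-32859585, plus) and TAPBP (chr6:33299694-33314387, minus). PSME1 (chr14:24136158-24138967, plus) and PSME2 (chr14:24143362-24147570, minus) are neighbours on chromosome 14. PSMB10 lies at chr16:67934502-67937087 (minus), TAPBPL at chr12:6451690-6466517 (plus) and ERAP1 at chr5:96760810-96808100 (minus).

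Interferon-stimulated genes often carry a response element bound by IRF proteins, whose core can be written as GAAA, any 2 bases and GAAA again. A search of the RefSeq promoter windows (GRCh38.p14, 250 bases before to 50 after each start, either strand, overlapping matches counted) found it for 8 of the 10 genes, against 4.38% of 27305 genes. It was found for 2 of 10 constitutive 20S subunits with a window (PSMA4 and PSMB4) and for 0 of 17 subunits of the 19S regulator. The 30 bases around each match are shown because these genes moved together under IFN-γ. The core is in capitals on whichever strand it lies, and each sequence is read 5′ to 3′ on the gene's strand.
TAP1 (chr6:32853816-32853845, minus): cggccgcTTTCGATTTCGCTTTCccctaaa
TAP2 (chr6:32838778-32838807, minus): ctggggaagcGAAAGCGAAAgctgcccgag
TAPBP (chr6:33314076-33314105, minus): tttggagGAAAGTGAAAGTGAAAggaggaa
PSMB8 (chr6:32844032-32844061, minus): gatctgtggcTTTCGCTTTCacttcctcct
PSMB10 (chr16:67936852-67936881, minus): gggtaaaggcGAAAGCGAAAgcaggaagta
PSME1 (chr14:24136189-24136218, plus): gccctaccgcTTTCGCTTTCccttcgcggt
PSME2 (chr14:24146619-24146648, minus): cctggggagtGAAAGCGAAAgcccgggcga
ERAP1 (chr5:96807924-96807953, minus): cgggctccacTTTCACTTTCggtcctgggg
TAP1 and TAPBP hold overlapping pairs of cores. The matches begin between 134 bases before the RefSeq start (TAP1) and 6 bases after it (PSME1), and all of these windows overlap an exon of a GENCODE model of these genes, 7 of them along their whole length.

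PSMB9 and TAPBPL had no match in their windows. PSMB9 and TAP1 are read in opposite directions from starts that RefSeq places 488 bases apart, so the TAP1 cores lie in the interval that separates the pair. The longest GENCODE model of TAP1 reaches 274 bases further than the RefSeq start. The stretch between that model and the nearest downstream exon of PSMB9 is covered by no exon of either gene, and is shown on the plus strand with its complete GC box (GGGCGG) in capitals.
TAP1-PSMB9 interval (chr6:32853979-32854147, plus): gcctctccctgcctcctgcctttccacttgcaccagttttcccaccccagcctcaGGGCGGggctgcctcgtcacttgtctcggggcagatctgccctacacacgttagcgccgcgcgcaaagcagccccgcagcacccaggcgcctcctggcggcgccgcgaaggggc
GC boxes were found in the windows of 8 of the 10 genes, against 48.3% of genes. The interferon-γ-activated sequence TTCNNNGAA was found for 2 of the 10 (TAP1 and PSMB8), against 9.38% of genes. A match describes the letters of a window and was not tested for binding.

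The libraries held 20901909 to 28045842 estimated counts. ERCC spike-ins made up 0.110 to 0.141% of an untreated library and 0.228 to 0.271% of a treated one. Colon epithelial markers were present, with 6 or 7 of 8 detected and a summed level of 2281 to 5122 CPM (counts scaled to a common library size), although VIL1 and CDX1 were at or near 0. Plasma cell transcripts stood out in both untreated wild-type libraries and in replicate 2 of both knock-in groups. There 10 of 11 markers were detected, and the markers other than SDC1, which epithelia also express, summed to 272 to 393 CPM, against 0.939 to 2.13 CPM in the other 4 libraries. No wild-type pair is alike in this respect, so in that line these transcripts and the absence of treatment cannot be told apart. Leukocyte markers moved with them, at a summed 26.4 to 33.02 CPM in those 4 libraries and 3.05 to 8.80 CPM in the others. Replicate 1 of the knock-in line gives an untreated and a treated library that both lack them.

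Levels below are CPM with library sizes adjusted by TMM (trimmed mean of M-values), and a change was called when edgeR's quasi-likelihood test gave an adjusted p under 0.05 over all 16519 tested genes. After 24 h with IFN-γ all 10 genes rose in both lines. In the wild-type line 17.1% of the tested genes were called higher, and in the knock-in line 26.4%. The split depended on the scaling: 2821 genes were called higher and 3435 lower in the wild-type line and 4356 and 4257 in the knock-in line, against 233 and 6745, and 616 and 5476, with ERCC scaling. The median log2 fold change of the 10 genes was 3.40 in the wild-type line and 2.94 in the knock-in line, against 0.08 and 0.12 over all tested genes. All 10 passed the filter on low counts over the 8 libraries, PSMB8 and PSMB9 only through the treated ones: in the untreated groups alone 8 of the 10 passed. In each line, all 10 had both treated libraries above both untreated ones, as did 36.5% of tested genes in the wild-type line and 42.7% in the knock-in line.

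**Figure D1:**
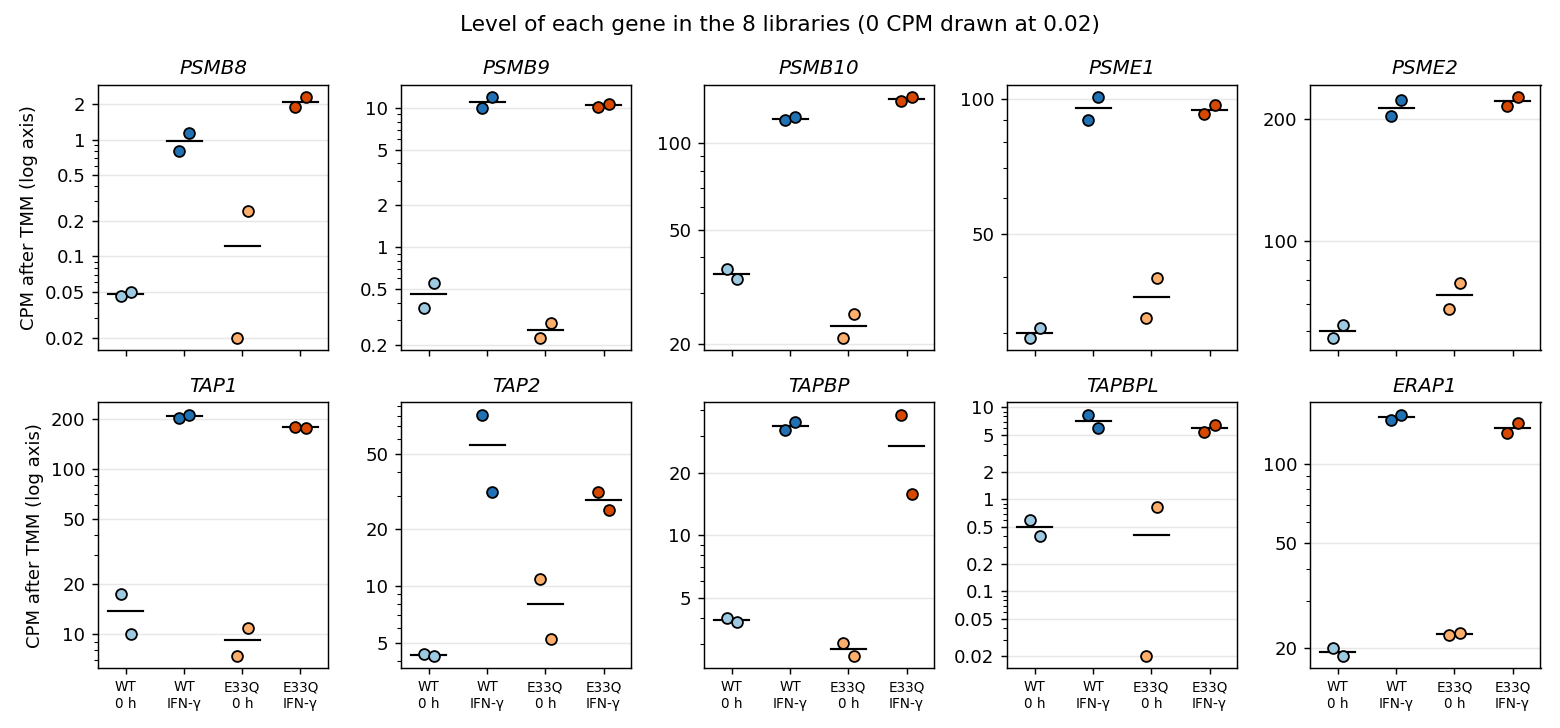
Level of each gene in the 8 libraries, in CPM after TMM scaling on a log axis with its own range in each panel; points are libraries, bars are group means, and a level of 0 is drawn at 0.02. In every panel the treated libraries of a line lie above its untreated ones, and TAP2 and TAPBP show the widest gaps between treated replicates.

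PSMB10, the β2i subunit, was well expressed before treatment. It stood at 36.4 and 33.8 CPM in untreated and 120.0 and 124 CPM in treated wild-type libraries, and at 20.9 and 25.4 CPM in untreated and 139.8 and 145 CPM in treated knock-in libraries. The 4 groups did not overlap: the knock-in line began lower and ended higher. PSMB10 rose by a log2 fold change of 1.80 ± 0.14 (SE; 2 libraries a group, as in all fits here; adjusted p = 6.96e-05) in the wild-type line and of 2.62 ± 0.14 (adjusted p = 6.79e-06) in the knock-in line, or 3.48-fold and 6.13-fold. AC040162.1, a gene model on the same strand, overlaps PSMB10 by 1516 bases and held 50.5 to 444 counts.

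PSMB9, the β1i subunit, had few counts before treatment. Its levels were 0.368 and 0.551 CPM in untreated wild-type libraries and 9.96 and 12 CPM in treated ones. In the knock-in line they were 0.223 and 0.287 CPM untreated and 10.1 and 10.8 CPM treated. Treated levels of the lines overlapped, while both untreated knock-in libraries lay under both untreated wild-type ones. PSMB9 had the largest fitted rise of the 10 genes in both lines, with log2 fold changes of 4.57 ± 0.32 (adjusted p = 4.18e-05) and 5.31 ± 0.34 (adjusted p = 2.06e-05), or 23.7-fold and 39.6-fold. The untreated libraries held only 3.7 to 10.7 estimated counts of it.

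PSMB8, the β5i subunit, had very few counts on its own ID. GENCODE lists 35 of its 41 transcripts outside the primary assembly, so its level may hold only part of its reads. Its wild-type levels were 0.0460 and 0.0501 CPM untreated and 0.801 and 1.14 CPM treated, and its knock-in levels were 0 and 0.246 CPM untreated and 1.90 and 2.31 CPM treated. The knock-in library with 0.246 CPM is one of those with plasma cell transcripts, and its part in that value was not tested. The fitted log2 fold changes were 4.20 ± 1.11 (adjusted p = 0.0163) in the wild-type line and 3.93 ± 0.98 (adjusted p = 0.00757) in the knock-in line, the widest errors of the group. In rounded counts the wild-type rise was from 2 in both untreated libraries together to 49 in the treated ones, a ratio of 20.2 with an exact 95% interval of 5.29 to 171 that covers counting error only. The wild-type call was lost without untreated replicate 1 (adjusted p = 0.0603), untreated replicate 2 (0.0762) or treated replicate 2 (0.0583). Without untreated knock-in replicate 1 the knock-in value was 3.07 (adjusted p = 0.0242), and without untreated replicate 2 the remaining untreated library held 0 counts, so that no fold is given.

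The PA28 subunits were well expressed before treatment and rose in both lines. PSME1 had the smallest fitted rise of the 10 genes with TMM, but with the trend on GC content and length removed it was at 2.23 and 1.95, above PSMB10 (1.83) and PSME2 (1.83) in the wild-type line and above PSME2 (1.46) and TAP2 (1.31) in the knock-in line. PSME1 (PA28α) was at 29.2 and 30.9 CPM in untreated and 89.9 and 101 CPM in treated wild-type libraries, and at 32.5 and 39.8 CPM and 92.6 and 96.9 CPM in the knock-in line. PSME2 (PA28β) was at 57.6 and 62.1 CPM and 204 and 223 CPM in the wild-type line, and at 68.0 and 78.9 CPM and 216 and 227 CPM in the knock-in line. For both genes untreated knock-in libraries lay above untreated wild-type ones, while treated libraries of the lines overlapped. PSME1 rose 3.18-fold (log2 1.67 ± 0.15, adjusted p = 0.000166) and 2.62-fold (1.39 ± 0.15, adjusted p = 0.000188) in the wild-type and knock-in lines. PSME2 rose 3.57-fold (1.83 ± 0.13, adjusted p = 5.13e-05) and 3.02-fold (1.59 ± 0.13, adjusted p = 0.000102).

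Of the transporter's 2 chains, TAP1 was the steadier between replicates in every group but untreated wild-type. TAP1 levels were 17.5 and 9.97 CPM in untreated and 202 and 213 CPM in treated wild-type libraries, and 7.41 and 10.9 CPM in untreated and 179 and 178 CPM in treated knock-in libraries. Untreated levels of the lines overlapped, and treated knock-in libraries lay under treated wild-type ones. The log2 fold changes were 3.91 ± 0.27 (adjusted p = 3.51e-05) and 4.27 ± 0.27 (adjusted p = 1.99e-05), or 15.1-fold and 19.3-fold.

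Outside the untreated wild-type group, TAP2 varied more between replicates. It was at 4.37 and 4.26 CPM in untreated wild-type libraries and at 81.0 and 31.3 CPM in treated ones, so treated replicate 1 was far above treated replicate 2. In the knock-in line it was at 10.9 and 5.21 CPM untreated and at 31.4 and 25.3 CPM treated. TAP2 rose by 3.70 ± 0.48 on the log2 scale (adjusted p = 0.000686) in the wild-type line and by 1.83 ± 0.44 (adjusted p = 0.00661) in the knock-in line.

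The wild-type value of TAP2 fell to 2.85 (adjusted p = 0.00577) without treated replicate 1. In the knock-in line the value was 2.44 (adjusted p = 0.00610) without untreated replicate 1 and 1.38 (adjusted p = 0.0562) without untreated replicate 2. The knock-in call was also lost with ERCC scaling (1.29, adjusted p = 0.0828), with the trend on GC content and length removed (1.31, 0.0519) and without both knock-in libraries that hold plasma cell transcripts (1.53, 0.0647). A pair of unnamed gene IDs equalled TAP2 within 0.1% in 4 of the 8 libraries each, but in treated wild-type replicate 1 they held 226 counts where TAP2 held 2122. AL669918.1, a gene model on the same strand, covers TAP2 whole (16948 bases) and held 31.9 to 1327 counts. How reads were divided among these IDs was not tested.

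**Figure D2:**
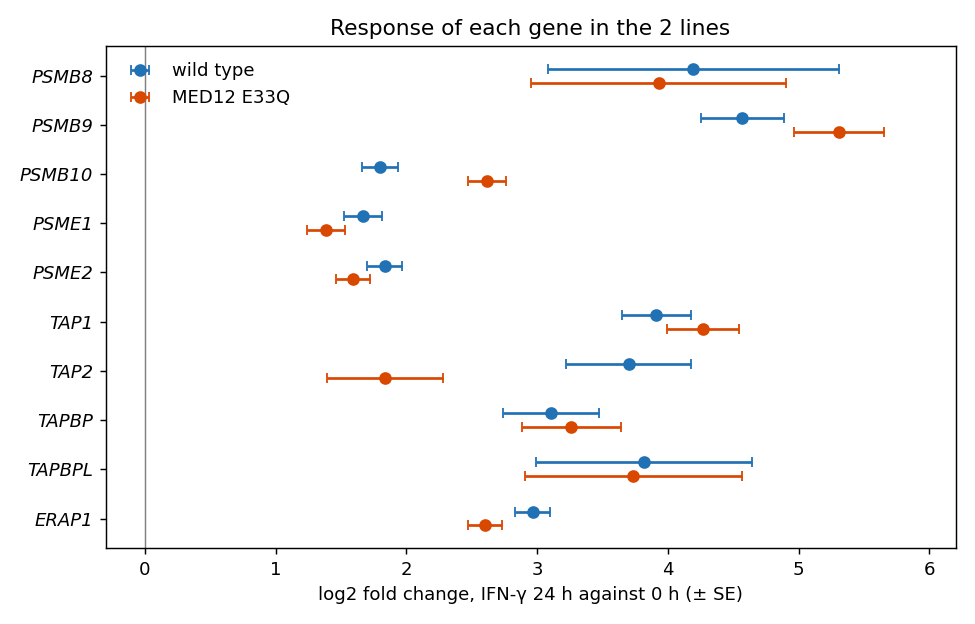
Response of each gene to 24 h of IFN-γ, as the log2 fold change from edgeR (horizontal axis; points with bars of 1 SE) in the wild-type line (blue) and the MED12 E33Q line (orange). All points lie to the right of 0, from 1.39 for PSME1 to 5.31 for PSMB9, both in the knock-in line, and the widest bars are those of PSMB8 and TAPBPL.

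The peptide editors rose from low counts. TAPBP, tapasin, was at 4.0 and 3.81 CPM in untreated and 32.2 and 35.2 CPM in treated wild-type libraries, and at 3.01 and 2.63 CPM in untreated and 38.1 and 15.8 CPM in treated knock-in libraries. The treated knock-in replicates differed most and lay on either side of the wild-type ones. The log2 fold changes were 3.11 ± 0.37 (adjusted p = 0.000532) and 3.26 ± 0.38 (adjusted p = 0.000218), and without treated knock-in replicate 1 the latter was 2.49 (adjusted p = 0.000537).

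TAPBPL was at 0.598 and 0.401 CPM in untreated and 8.35 and 5.92 CPM in treated wild-type libraries. In the knock-in line it was at 0 and 0.821 CPM untreated and at 5.46 and 6.42 CPM treated. The library at 0 was untreated replicate 1, which lacks plasma cell transcripts, and the library at 0.821 CPM holds them; their part in that value was not tested. The log2 fold changes were 3.82 ± 0.83 (adjusted p = 0.00629) and 3.74 ± 0.83 (adjusted p = 0.00425). Without untreated knock-in replicate 1 the knock-in value was 2.84 (adjusted p = 0.00246), and without untreated replicate 2 the remaining untreated library held 0 counts, so that no fold is given.

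ERAP1, the trimming aminopeptidase, was the most even between replicates. It was at 19.9 and 18.6 CPM in untreated and 147 and 154 CPM in treated wild-type libraries, and at 22.4 and 22.7 CPM in untreated and 131 and 143 CPM in treated knock-in libraries. The lines did not overlap in either state: the knock-in line was the higher untreated and the lower treated. ERAP1 rose 7.82-fold (log2 2.97 ± 0.13, adjusted p = 2.49e-06) and 6.07-fold (2.60 ± 0.13, adjusted p = 4.43e-06). Genes on the other strand overlap ERAP1 (CAST), TAPBPL (VAMP1) and PSME2 (RNF31), and PSMB9 overlaps TAP1 and PSMB8 in the same way; whether the counts were made with strand is not given in the sources used here.

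Levels of different genes are compared per kilobase of a representative transcript. This is done here for PSMB10, ERAP1 and TAPBPL, which other gene models overlap as given above, and how reads were divided there was not tested. GENCODE lists no transcript of these genes outside the primary assembly. For the other 7 genes it lists 10 (PSME1) to 42 (TAPBP and PSMB9) further transcripts, on alternative copies of their regions. Of IDs that no name table used here could name, 4 held counts within 3.75% of those of PSMB9 in every library, and 1 each was identical to PSME1 and PSME2, so these genes' own IDs may hold only part of their reads. In treated wild-type cells PSMB10 stood at 100.1 CPM per kb, ERAP1 at 27.4 and TAPBPL at 4.10. In treated knock-in cells the order was the same, at 117, 24.9 and 3.41 CPM per kb. Summed with the IDs of matching counts, an alternative added after seeing the data, the treated wild-type level was 54.9 ± 7.23 CPM (SD, n = 2) for PSMB9, 191 ± 15.8 CPM for PSME1 and 427 ± 27.7 CPM for PSME2.

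Each induced catalytic subunit replaces a constitutive one in new proteasomes: PSMB9 replaces PSMB6 (β1), PSMB10 replaces PSMB7 (β2) and PSMB8 replaces PSMB5 (β5). The ratio of counts per kb within a library does not depend on how libraries are scaled, but the trend on GC content and length was not removed from it. With that trend removed, the fitted log2 fold change of PSMB7 was -0.20 in the wild-type and -0.34 in the knock-in line, against -0.93 and -1.10 with TMM. That of PSMB10 was 1.83 and 2.46, against 1.80 and 2.62. PSMB10 to PSMB7 was 0.0893 and 0.0634 in untreated and 0.494 and 0.493 in treated wild-type libraries, while the knock-in line went from 0.0382 and 0.0454 to 0.547 and 0.550. By counts per kb of a representative transcript, PSMB7 thus lay above PSMB10 in every library. PSMB9 to PSMB6 went from 0.00330 and 0.00468 to 0.127 and 0.119 in the wild-type line and from 0.00194 and 0.00221 to 0.115 and 0.105 in the knock-in line, and with the 4 IDs of matching counts added it reached 0.522 to 0.633 in treated libraries. PSMB8 to PSMB5 went from 0.000265 and 0.000323 to 0.00536 and 0.00685 in the wild-type line and from 0.000137 and 0.0010 to 0.0124 and 0.0147 in the knock-in line. PSMB5 has no transcript listed outside the primary assembly and PSMB8 has 35 of 41, so this ratio may leave out PSMB8 reads.

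All 4 treated libraries lay above all 4 untreated ones for each of the 3 ratios. The mean log2 ratio was higher with treatment by 3.22 for PSMB10 to PSMB7, 5.35 for PSMB9 to PSMB6 and 4.78 for PSMB8 to PSMB5. The last value rests on untreated libraries of 0 to 6 rounded counts of PSMB8 and so on the pseudocount of 0.5 counts: with 5 counts it was 2.99. The exact two-sided permutation p was 0.0286 for each, which is the smallest that 4 against 4 libraries allow, and was 0.0286 after Benjamini-Hochberg adjustment over the 3 ratios. The permutations pooled the libraries of both lines and did not keep line fixed, so this p rests on that pooling. By line, the log2 ratio of PSMB10 to PSMB7 rose from -3.73 ± 0.35 to -1.02 ± 0.00 (SD, n = 2) in wild-type cells and from -4.59 ± 0.18 to -0.87 ± 0.01 in knock-in cells; the exact test was not run by line.

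**Figure D3:**
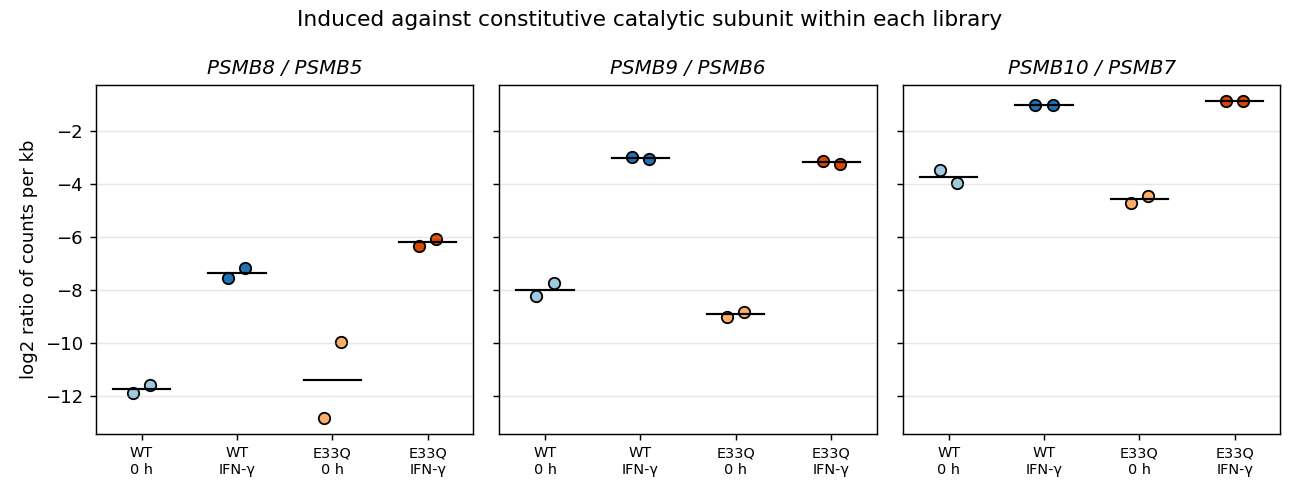
Log2 ratio of counts per kb of each induced catalytic subunit to the constitutive subunit it replaces, within each library (points) with the group mean (bars). Every treated library lies above every untreated one, and PSMB10 to PSMB7 comes nearest to 0, the level of equal counts per kb, at -0.86 to -1.02 in treated libraries.

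Without treatment, PSMB10 was the only gene of the 10 called between the lines. It was lower in the knock-in line by a log2 difference of -0.60 ± 0.14 (edgeR adjusted p = 0.0326), where 4.17% of tested genes were called lower and 4.26% higher. The untreated knock-in library with plasma cell transcripts had 25.4 CPM, the higher level of its group. Both untreated wild-type libraries hold these transcripts, and the part of the transcripts in the difference was not tested. The call was lost in the fits without any of 7 libraries in turn (adjusted p from 0.0611 to 0.151), all but untreated wild-type replicate 2, and when only the untreated groups entered the fit (-0.58, adjusted p = 0.182). Of the other 7 genes that passed the filter on untreated libraries alone, differences ran from -0.57 ± 0.26 for TAP1 to 0.88 ± 0.47 for TAP2, with adjusted p of 0.183 or above. PSMB9 (-0.81 ± 0.41) and PSMB8 (1.38 ± 1.26) entered the fit only through the treated libraries, and were not called. Of the 10, 4 genes had both knock-in libraries above both wild-type ones (TAP2, PSME1, PSME2 and ERAP1) and 3 had both below (TAPBP, PSMB9 and PSMB10), against 25.5% and 25.1% of tested genes. With no filter on low counts TAP1 (-0.57, adjusted p = 0.0170) and TAP2 (0.89, adjusted p = 0.00213) were called as well. That edgeR fit gave far smaller adjusted p at wider errors. For the wild-type response of ERAP1 it gave 4.14e-59 (2.97 ± 0.18), against 2.49e-06 (2.97 ± 0.13) in the main fit. P-values with no filter are therefore not comparable with those of the main fit. With ERCC scaling the differences of PSME1, PSME2 and ERAP1 were -0.06, -0.03 and -0.11, so their direction depends on the scaling.

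With IFN-γ none of the 10 genes was called between the lines by edgeR or DESeq2, where edgeR called 2.91% of tested genes. The fitted differences, knock-in minus wild-type, ran from -0.98 ± 0.42 for TAP2 to 1.11 ± 0.82 for PSMB8, and that of TAP2 had an adjusted p of 0.298. Without treated wild-type replicate 1 the TAP2 difference was -0.14 (adjusted p = 0.939). With no filter TAP2 was called (adjusted p = 8.95e-05), in the fit whose p-values are not comparable with those of the main fit. With only the treated groups in the fit PSMB10 was called higher in the knock-in line (0.24, adjusted p = 0.0349). PSMB8 and PSMB10 had both knock-in libraries above both wild-type ones and TAP1 and ERAP1 had both below, against 27.8% and 29.9% of tested genes.

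The difference between the responses of the lines was tested as an interaction. It was called for 0 of 16519 genes by edgeR, although 1119 had an unadjusted p under 0.05, and for 4 genes by DESeq2, none of them among the 10. The fitted PSMB10 response was the stronger in the knock-in line by 0.82 ± 0.19 on the log2 scale (edgeR adjusted p = 0.688), and that of TAP2 the weaker, with a difference of -1.87 ± 0.63 (adjusted p = 0.688), but neither was called. The other 8 genes differed by -0.37 ± 0.18 (ERAP1) to 0.74 ± 0.48 (PSMB9), also uncalled. With no filter on low counts edgeR called 267 genes, TAP2 (adjusted p = 4.95e-07) and PSMB10 (0.0470) among them. As given above, p-values of that fit are not comparable with those of the main fit. Without treated wild-type replicate 1 the TAP2 value was -1.03 (adjusted p = 0.779).

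Most other proteasome subunits fell or were not called, though many of these falls depended on the correction for GC content and length. Of all tested genes, 20.8% were called lower in the wild-type line and 25.8% in the knock-in line. PSMB7 fell in both lines (log2 fold changes -0.93 and -1.10) and so did PSMB5 (-0.58 and -0.73), while PSMB6 fell in the knock-in line (-0.47, adjusted p = 0.0353) and was at -0.38 (adjusted p = 0.100) in the wild-type line. The knock-in call of PSMB6 was lost without untreated knock-in replicate 2 or either treated knock-in replicate, and the wild-type call of PSMB5 without treated wild-type replicate 1. Without both knock-in libraries that hold plasma cell transcripts PSMB5 was at -0.71 (adjusted p = 0.0759) and PSMB6 at -0.45 (adjusted p = 0.270). With the trend on GC content and length removed none of the 3 was called in the wild-type line, and PSMB6 was at 0.16 and 0.01. Of 11 other 20S subunits, 10 fell in each line (all but PSMB2), with PSMB1 (-1.31 and -1.29) and PSMA1 (-1.20 and -1.44) among the largest changes, and medians of -0.84 and -0.93. With the GC and length trend removed 4 fell in each line, 1 rose in the wild-type and 2 in the knock-in line, and the medians were 0.07 and 0.09. Of 18 subunits of the 19S regulator, 10 fell and 3 rose in the wild-type line and 12 fell and 3 rose in the knock-in line, with PSMC6 (-1.27 and -1.45) and PSMD14 (-1.21 and -1.46) among the largest changes. With the trend removed PSMD14 was at -0.62 and -0.74, still called, while PSMC6 was at -0.15 and -0.04 (adjusted p = 0.276 and 0.772). The 3 that rose were PSMD2, PSMD3 and PSMC4 in the wild-type line and PSMD2, PSMD3 and ADRM1 in the knock-in line, by at most 1.02. With the trend removed 6 fell and 2 rose in the wild-type line, and 9 fell and 1 rose in the knock-in line. ERCC scaling moved the groups the other way: in each line it called all 3 catalytic subunits, all 11 other 20S subunits (medians -1.62 and -1.46) and 14 of 18 subunits of the 19S regulator lower, and 0 higher.

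Assembly factors and other regulators gave mixed results. POMP, the chaperone of 20S maturation, fell by 1.60 and 1.82 on the log2 scale, but was at -0.15 (adjusted p = 0.390) and -0.10 (adjusted p = 0.568) with the GC and length trend removed. In all, 4 of 9 assembly factors fell in the wild-type line (POMP, PSMG1, PSMG2 and PSMD10) and 5 in the knock-in line (these and PSMD5), and 0 rose. Over all tested genes 20.8% and 25.8% were called lower. PSMD10, a 19S assembly chaperone, was at -1.13 and -1.60, and at -0.14 and -0.44 with the trend removed, where only the knock-in value was called. PSME3 (PA28γ), the nuclear relative of PSME1 and PSME2, rose in the knock-in line (0.63, adjusted p = 0.00589), was at 0.38 (adjusted p = 0.0720) in the wild-type line, and the values were 0.10 and -0.45, uncalled, with ERCC scaling. With the GC and length trend removed PSME3 was called higher in both, at 1.31 (adjusted p = 0.000401) in the knock-in and 1.02 (adjusted p = 0.00167) in the wild-type line. Its knock-in call was lost without treated knock-in replicate 2 and without both libraries that hold plasma cell transcripts (0.64, adjusted p = 0.118). The proteasome inhibitor PSMF1 rose in the knock-in line (0.94, adjusted p = 0.000871) and was at 0.37 (adjusted p = 0.0821) in the wild-type line. With ERCC scaling it was at 0.41 (adjusted p = 0.245) and -0.45, and the knock-in call was also lost without both libraries that hold plasma cell transcripts (0.87, adjusted p = 0.0571).

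Peptidases and chaperones outside the 10 genes moved less evenly. ERAP2, the second trimming aminopeptidase of the endoplasmic reticulum, rose in both lines (2.46 and 2.16), while LNPEP, its endosomal relative, was at 0.14 and 0.05 (adjusted p = 0.501 and 0.809) and turned to -0.65 (called) and -0.48 with ERCC scaling. With the GC and length trend removed LNPEP was called higher in both lines (0.35, adjusted p = 0.0442, and 0.51, adjusted p = 0.00646). Of 6 cytosolic peptidases, 1 rose and 1 fell in the wild-type line and 2 rose and 2 fell in the knock-in line. Over all tested genes 17.1% were called higher and 20.8% lower in the wild-type line, and 26.4% and 25.8% in the knock-in line. The counts of peptidases, and of chaperones below, lie near these shares. LAP3, a leucine aminopeptidase, rose in both (0.77 and 0.59), TPP2 fell in both (-0.89 and -1.04), and NRDC fell in the knock-in line (-0.39). THOP1, which degrades peptides, rose in the knock-in line (0.81, adjusted p = 0.0115) and was at 0.35 (adjusted p = 0.229) in the wild-type line, but at -0.44 and -0.42 with the GC and length trend removed. Its knock-in call was also lost with ERCC scaling and without untreated knock-in replicate 2, treated knock-in replicate 1, or both libraries that hold plasma cell transcripts. Of 6 chaperones that serve class I folding, 1 rose (UGGT1) and 1 fell (HSP90B1) in the wild-type line, and 1 rose (UGGT1) and 2 fell (CANX and HSP90B1) in the knock-in line. CALR was at 0.10 and 0.08 and PDIA3 at -0.14 and -0.32, uncalled in both lines. With ERCC scaling edgeR called PDIA3 lower in both (-0.93, adjusted p = 0.00193, and -0.85, adjusted p = 0.00338). CALR was then called lower in the wild-type line (-0.72, adjusted p = 0.00812) and was at -0.45, uncalled, in the knock-in line. CANX was at -0.37 in the wild-type line and fell in the knock-in line (-0.61), a call lost with the trend removed (0.02, adjusted p = 0.929), without both libraries that hold plasma cell transcripts (-0.37, adjusted p = 0.376), and without untreated knock-in replicate 2 or either treated knock-in replicate. With ERCC scaling it was called lower in both lines. HSP90B1 fell in both (-0.73 and -0.95), though it was at -0.14 and -0.17, uncalled, with the trend removed.

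Of the 5 genes reported here for the class I chains that receive the peptides, 5 were called higher in the wild-type line and 4 in the knock-in line. Over all tested genes 17.1% and 26.4% were called higher. HLA-E rose by 3.01 and 3.19, HLA-C by 1.58 and 1.95, HLA-B by 1.58 and 1.63, and B2M, the shared light chain, by 0.94 and 0.54 on the log2 scale. The B2M changes were 0.17 and 0.01 with ERCC scaling, uncalled, and 2.01 and 1.83 with the GC and length trend removed (adjusted p = 3.19e-06 and 5.25e-06). The knock-in call of B2M was lost with DESeq2 size factors and in 5 of the 8 fits without 1 library, all but those without either untreated wild-type replicate or untreated knock-in replicate 1. Without both knock-in libraries that hold plasma cell transcripts B2M was at 0.36. With ERCC scaling 3 of the 5 genes were called higher in each line, and HLA-C in the wild-type line was at 0.74 (adjusted p = 0.0725). HLA-F rose in the wild-type line (3.32) and was at 1.24 (adjusted p = 0.0686) in the knock-in line. These genes are polymorphic, and their counts depend on how well the line's alleles match the reference.

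**Figure D4:**
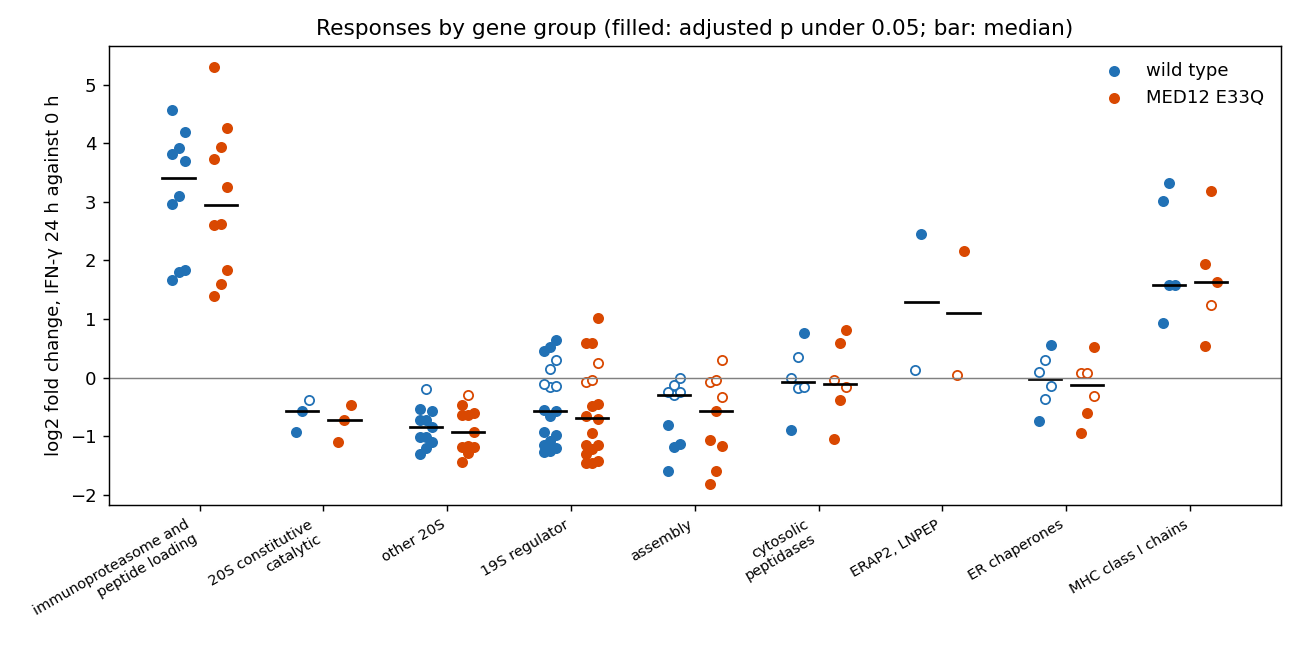
Response of the 10 genes and of the related gene groups to IFN-γ, as log2 fold changes in the wild-type (blue) and MED12 E33Q (orange) lines; filled points have an adjusted p under 0.05 and bars are medians. The 10 genes have medians of 3.40 and 2.94, and the 20S, 19S and assembly groups have medians under 0 here; with the GC and length trend removed the medians of the other 20S subunits were 0.07 and 0.09.

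Several factors that act upstream rose as well. NLRC5, the transactivator of class I genes, rose from 6.90 and 4.36 to 181 and 166 CPM in the wild-type line and from 2.45 and 2.17 to 160.0 and 161 CPM in the knock-in line, with log2 fold changes of 4.94 ± 0.21 and 6.12 ± 0.23, or 4.12 and 4.86 with the GC and length trend removed. Untreated NLRC5 was lower in the knock-in line (-1.29 ± 0.23, adjusted p = 0.0132). Both untreated wild-type libraries and untreated knock-in replicate 2 hold plasma cell transcripts, and their part in this difference was not tested. How far this call depends on the fit was not examined. IRF1 rose by 4.86 ± 0.17 and 4.92 ± 0.17, to 337 to 361 CPM in treated libraries. The difference between the responses was not called for either (adjusted p = 0.688 for NLRC5 and 0.947 for IRF1). Of the 7 such factors reported here, 4 rose in the wild-type line (NLRC5, IRF1, IRF2 and RFX5), and 5 rose (these and RFXANK) and 1 fell (CREB1) in the knock-in line. Over all tested genes 17.1% were called higher in the wild-type line, and 26.4% higher and 25.8% lower in the knock-in line. With ERCC scaling 2 of the 7 rose and 2 fell in each line.

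Genes with the pattern most like that of a member were sought by the Pearson correlation of log2 CPM over the 8 libraries, among named genes of at least 5 CPM on average. The points share treatment, and the values are a description. For TAP1 they were JOSD1, PARP12, ADAR, TRANK1 and ZBTB40 (r = 0.998 to 0.996, n = 8). For PSMB9 they were APOL1, BTN3A1, HIPK1, IFIH1 and PPFIA1 (r = 0.997 to 0.994, n = 8), and for ERAP1 they were DTX3L, TLR3, APOL6, APOL3 and UBE2L6 (r = 0.999 to 0.997, n = 8). None of these genes is among the 10.

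Measured against the ERCC spike-ins instead of TMM, the median of all tested genes moved to -0.72 in the wild-type and -0.41 in the knock-in response. Under that scaling edgeR called the 10 genes higher in the wild-type line, where 233 of 16519 tested genes were called higher. In the knock-in line it called 9 of 10 higher, all but TAP2, where 616 of 16519 were called higher. Their medians were 2.63 and 2.41. Without both knock-in libraries that hold plasma cell transcripts, TAP2 was at 1.53 and TAPBP at 3.66 in the knock-in line. In that fit TAP1 was at 4.59, PSMB9 at 5.47, PSMB10 at 2.74, PSME1 at 1.51, PSME2 at 1.67 and ERAP1 at 2.54; TAPBPL and PSMB8 had 0 counts in the untreated library, so that no fold is given. The lone libraries of each knock-in group were assumed there to vary like the other groups.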

How the data were processed

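The submitters' processing notes name Trimmomatic for trimming, kallisto for quantification and the GRCh38 build. The sources used here do not give tool versions, the transcript annotation or the spike-in amount. The authors deposited 1 table of estimated counts per Ensembl gene ID, with 40295 gene IDs beside 63 rows for ERCC spike-ins; of the values above 0, 58.1% were fractional (tolerance 1e-06). GENCODE release 29 named 35583 IDs. The other 4712, tested unnamed, took 2.23 to 2.45% of counts before treatment and 2.96 to 3.04% after it.

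Counts were rounded, spike-ins were left out, and edgeR 4.0.16 in R 4.3.3 was used with TMM factors (0.860 to 1.13), filterByExpr (minimum count 10) and a quasi-likelihood test of each contrast over all 8 libraries with group as the only factor, adjusted by Benjamini-Hochberg at 0.05. The common dispersion was 0.0415, a coefficient of variation of 20.4%. The tests were checked on simulated data with changes planted only in genes of high mean count, so the check does not cover genes of few counts such as PSMB8. Alternatives used DESeq2 1.42.0, limma 3.58.1, ERCC scaling, other filters, a replicate block, a loess offset (span 0.3) on GC content and length, and left-out libraries. A GC content was at hand for 92.4% of the genes tested. Ratios of subunits used a pseudocount of 0.5 counts.

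The members and gene lists were chosen with earlier results of these data known. Named were all 10 members, a set list of related genes and, from each list, the 2 called genes with the largest change in either response, with the 5 genes most like TAP1, PSMB9 and ERAP1; further genes named beside a small count were chosen after their values were seen. From the lists of class I chains and of transcription factors, 1 gene each is not reported here, and the counts leave it out. P-values of the main fit rest on the spread between 2 libraries a group, estimated over all 4 groups together. The series' design text calls the libraries of a group biological replicates. Untreated counts were lowest for PSMB8, PSMB9 and TAPBPL.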

Additional observations from a re-analysis of the deposited data

How the results depend on the processing

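All 10 genes stayed called higher in the wild-type line under every alternative other than left-out libraries, and in the knock-in line all but TAP2, whose values stand above. The check of replicate numbers correlated the differences between replicates across groups and gave -0.002 to 0.270. The highest value was that of the knock-in groups, where replicate 2 of each holds plasma cell transcripts. Such values cannot settle whether the numbers pair the samples. With the replicate block all 10 rose in both lines, and PSMB10 remained the only one called without treatment (-0.60, adjusted p = 0.0307). Counts summed over IDs of the same symbol could not be run, because no name table used here pairs the alternative IDs with symbols. Summed with IDs of matching counts, chosen after seeing the data, no call of the 10 changed. PSMB8 and TAPBPL had 0 counts in an untreated library; for PSMB8 a limit of depth and the division of reads among copies cannot be told apart. The cause of the changes below was not tested, unless fewer samples or genes in the fit show it.

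The number of genes called in the wild-type response was 6256, and 3655 with the GC and length trend removed or 3771 with the block as well. In the knock-in response it was 8613, and 4636 and 4607 in those fits and 3523 without both knock-in libraries that hold plasma cell transcripts. Between the untreated lines it was 1392, and 667 with ERCC scaling, 2202 with DESeq2, 2959 with no filter, 2515 and 2539 with the trend removed without and with the block, and 614 when only those groups were fitted. Between the treated lines it was 481, and 195 with ERCC scaling, 832 with DESeq2, 1227 with no filter, 1433 and 1354 with the trend removed, and 2427 when only those groups were fitted. The difference between the responses was called for 0 genes, and for 4 with DESeq2 and 267 with no filter. The numbers with no filter, here and below, rest on p-values that are not comparable with those of the main fit.

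Of the 10 genes, 1 was called lower between the untreated lines. With no filter 2 were lower (TAP1 and PSMB10) and 1 higher (TAP2), with the block and the trend removed 1 was also higher (PSME2), and with only those groups fitted 0 of the 8 genes tested were lower, PSMB8 and PSMB9 not being tested. Between the treated lines 0 were called, but 1 was lower with no filter (TAP2) and 1 higher with only those groups fitted (PSMB10). For the difference between the responses the counts with no filter were 1 higher (PSMB10) and 1 lower (TAP2).

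Directions of small changes turned under some settings. With ERCC scaling the wild-type responses of PSME3, LNPEP, CALR, PSMF1 and THOP1 were -0.45, -0.65, -0.72, -0.45 and -0.48, and the knock-in responses of LNPEP and CALR were -0.48 and -0.45. With the GC and length trend removed, without and with the block, the wild-type responses were 0.16 and 0.15 for PSMB6, 0.061 and 0.067 for CANX, 0.15 and 0.16 for PDIA3, and -0.42 in both for THOP1. The knock-in responses were then 0.0075 and 0.0085 for PSMB6, -0.056 and -0.054 for CALR, 0.023 and 0.040 for CANX, 0.13 and 0.14 for PDIA3, and -0.44 in both for THOP1. The knock-in response of LNPEP was -0.016 with DESeq2 size factors, -0.013 with the DESeq2 test and -0.048 with only those groups fitted, where CALR was at -0.021.

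Between the untreated lines, ERCC scaling gave -0.057 for PSME1, -0.027 for PSME2 and -0.11 for ERAP1, and TAPBPL was at 0.0081 with the trend removed. Between the treated lines PSME1 was at 0.0060 with only those groups fitted. The difference between the responses was -0.076 and -0.15 for TAPBP with the trend removed, without and with the block, 0.20 for TAPBPL and 0.029 for PSME2 with ERCC scaling, and 1.24 for TAPBPL and 0.70 for PSMB8 with limma.

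With each library left out in turn, the number of genes called ran from 3266 (without treated wild-type replicate 1) to 7796 in the wild-type response, and was 3754 without treated wild-type replicate 2. It ran from 406 (without untreated knock-in replicate 2) to 4815 (without untreated wild-type replicate 2) between the untreated lines, and was 822 or less without each of the other 7. Between the treated lines it ran from 147 (without treated wild-type replicate 2 or treated knock-in replicate 1) to 1111 (without untreated wild-type replicate 2), and was 189, 155 and 1015 without treated wild-type replicate 1, treated knock-in replicate 2 and untreated wild-type replicate 1. For the difference between the responses it ran from 0 to 2, the latter without untreated wild-type replicate 2 or treated wild-type replicate 1. Of the 10 genes, 0 to 2 were called lower between the untreated lines, the 2 being PSMB10 and TAP1 without untreated wild-type replicate 2.

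In the same fits the wild-type response of LNPEP ran from -0.10 to 0.30, and the knock-in responses ran from -0.024 to 0.11 for LNPEP and -0.069 to 0.24 for CALR. Between the untreated lines TAPBPL ran from -6.56 to 0.71 and PSMB8 from -3.31 to 2.25. The lower ends come from the fit in which the only untreated knock-in library had 0 counts, so they depend on the prior count and are no bound. Between the treated lines the ranges were -1.09 to 0.18 for TAPBP, -0.49 to 0.0086 for TAPBPL, -0.20 to 0.066 for PSMB9, -0.089 to 0.074 for PSME1 and -0.0065 to 0.12 for PSME2. For the difference between the responses they were -0.10 to 0.69 for TAP1, -0.62 to 0.65 for TAPBP, -0.97 to 6.29 for TAPBPL and -1.13 to 4.43 for PSMB8, the upper ends of TAPBPL and PSMB8 again resting on a library at 0 counts. The log2 ratio differences ran from 4.36 to 5.32 for PSMB8 to PSMB5, 5.16 to 5.59 for PSMB9 to PSMB6 and 3.03 to 3.44 for PSMB10 to PSMB7, and 3 against 4 libraries cannot reach an exact p under 0.05.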
